A study of Mus musculus with 16 samples.

Results

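Tuft cells are chemosensory epithelial cells. They sense luminal or local signals through a cascade shared with taste cells, in which a receptor activates the G protein gustducin, phospholipase C releases calcium from stores and the cation channel TRPM5 opens. In the gut they are known for releasing interleukin 25, leukotrienes and acetylcholine, and a population of the same kind that depends on the transcription factor POU2F3 lives in the thymic medulla, among the medullary thymic epithelial cells (mTEC). The genes described here were 10 genes linked to thymic tuft cells, found in the count table by matching Ensembl identifiers to the symbols Dclk1, Trpm5, Il25, L1cam, Pou2f3, Avil, Gfi1b, Gnat3, Sh2d6 and Ltc4s. All 10 were present, among 53464 Ensembl genes and 89407 rows.

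RNA was sequenced from mTEC of 8 mice, each giving 1 library of mature (MHCII high) and 1 of immature (MHCII low) mTEC, so that there were 16 libraries. Of these mice, 2 were Rbfox1 tKO (Rbfox1 lox/lox with Foxn1 wildtype/cre) and 2 were Rbfox2 tKO (Rbfox2 lox/lox with Foxn1 wildtype/cre), and each line had 2 control mice that were homozygous for the same floxed allele and Foxn1 wildtype/wildtype. All mice therefore carried a floxed Rbfox allele, and Cre, which is driven from Foxn1 in thymic epithelium, went together with the deletion. The labels give C57BL/6 mice aged 4 to 6 weeks and 10000 cells per population, whereas the study's methods describe mice of mixed origin, 129S2/Sv and C57BL/6J, and controls that were littermates of the same sex, and give a single age at the lower end of that range and, per animal, a span of cell numbers that begins at the labelled one. Each condition had 1 male and 1 female mouse.

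Totals were 3737884 to 4636367 counts in mature and 1506134 to 2430287 in immature libraries, and the 10 genes together had 930 to 1303 counts in a mature and 1271 to 1802 in an immature library. The libraries went with their labels in the mTEC genes: Aire, which drives promiscuous gene expression in mature mTEC, was at 640 to 1585 CPM (counts scaled to a common library size by TMM) in mature and 19.6 to 299 CPM in immature libraries. Of the deleted genes, Rbfox2 was at 9.56 to 16.2 CPM in mature and 23.6 to 37.8 CPM in immature mTEC of Rbfox2 tKO mice, against 57.1 to 58.1 and 94.5 to 106 CPM in their controls. Rbfox1, counted over the whole gene, was at 29.8 to 34.1 against 48.6 to 52.6 CPM in mature mTEC of the Rbfox1 line, but at 152 to 154 against 160.4 to 164 CPM in immature mTEC. These are bulk libraries, in which fewer tuft cells and less RNA per tuft cell cannot be told apart.

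Sequences near the gene start were searched for the letters ATGCAAA, part of the octamer that POU factors such as POU2F3 are known to bind, on both strands (TTTGCAT on the other). They are shown for Avil, the member whose promoter window held them, which codes for the actin-binding protein advillin. The RefSeq table of promoters for GRCm38.p6 gives the 250 bases before and 50 bases after a gene's start. It held 10 windows for 8 of the genes, and had no entry for Pou2f3 and Il25. The Avil window held the letters at 2 places, given here on the plus strand with the match in capitals.
Avil at chr10:127000683-127000711: atgtggttatgATGCAAAcacaagcaaat
Avil at chr10:127000583-127000611: gttttcgctgtTTTGCATaggagcagata
The matches began 15 and 115 bases before the start of Avil. Only these 7 letters were searched for, and whether a match extends to the whole octamer was not asked. The letters stood in 1520 of 32851 promoter windows (4.63%) and at 2 or more places in 94 of them (0.286%), so that most of the members, like most genes, did not hold them in this window.

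The first comparison asked how the tuft genes differ between mature and immature mTEC. Most tuft genes were higher in immature mTEC, with the largest change in the gustducin gene Gnat3, while the transcription factor gene Gfi1b was higher in mature mTEC. In the 4 control mice, 7 of the 10 genes were lower in mature than in immature mTEC and 1 was higher at an adjusted p under 0.05 (the quasi-likelihood test of edgeR, Benjamini-Hochberg over 15357 genes), where 30.5% of all genes tested were lower and 35.7% higher. In the 4 tKO mice, which share no library with the controls, 9 were lower and 1 was higher, against 29.7% and 35.7% of 15189 genes. The median log2 fold change of the 10 genes was -1.70 in control and -1.94 in tKO mice, beside 0.02 and 0.04 over all genes tested. Il25 passed the filter on low counts only through its immature libraries and Gfi1b only through its mature libraries, in each case the population where the gene was higher, so that the filter set the direction in which they could be found. The other 8 members passed it in each population alone. Of these, 6 were lower in control and 8 in tKO mice and 0 were higher, with medians again of -1.70 and -1.94, where of all genes that passed in each population 36.7% were lower and 24.5% higher in control mice and 35.1% and 25.1% in tKO mice.

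**Figure D1:**
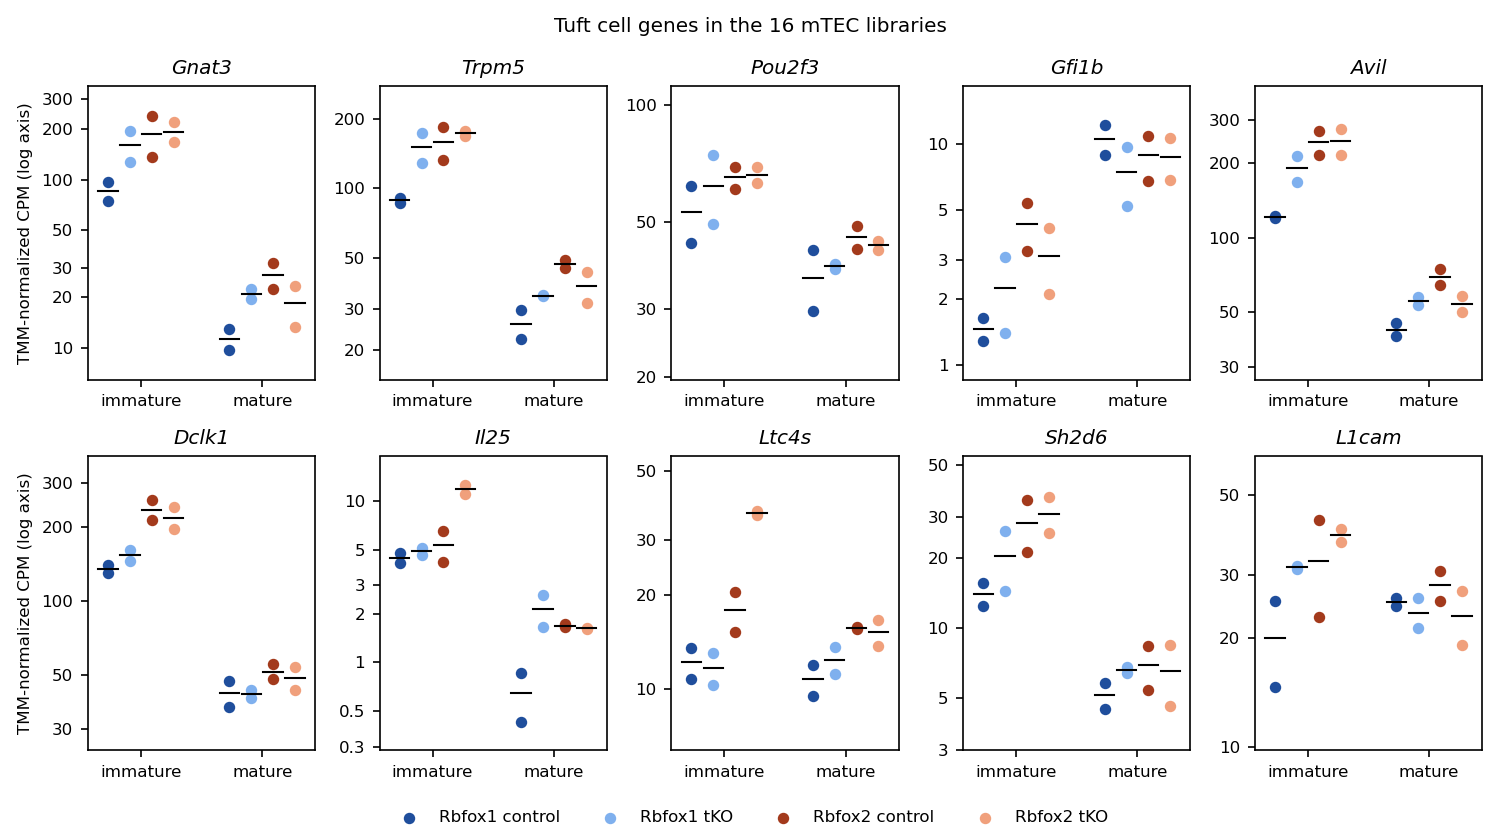
Level of each of the 10 tuft cell genes in TMM-normalized CPM (log axis, scale set for each gene) in the 16 libraries, by population, with points for mice and bars for the mean of the 2 mice of a condition. Gnat3, Trpm5, Avil, Dclk1, Sh2d6, Il25 and Pou2f3 lie lower in mature mTEC, and Gfi1b lies higher, with 1.29 to 5.42 CPM in immature and 5.21 to 12.1 CPM in mature mTEC.

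Gnat3 (ENSMUSG00000028777, chromosome 5 of GRCm38 from 17962549 to 18019834, plus strand) codes for the alpha subunit of gustducin. It had 74.2 to 240.1 CPM in the 8 immature libraries, with a median of 151, and 9.71 to 32.1 CPM with a median of 21.0 in the 8 mature ones. The ranges did not overlap, and within mice the level was 5.68 to 12.4 times higher in immature mTEC. The log2 fold change of mature over immature mTEC was -2.83 in control mice (standard error, SE, of 0.187, adjusted p = 9.36e-09, edgeR) and -3.14 in tKO mice (SE 0.172, adjusted p = 8.58e-11), the largest of the 10 in each.

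Trpm5 (ENSMUSG00000009246, chromosome 7 from 143069153 to 143094642, minus strand), the channel at the end of this cascade, had 86.5 to 184 CPM in immature libraries (median 150.4) and 22.3 to 49.2 CPM in mature ones (median 34.4). Again the ranges were apart. Its log2 fold changes were -1.74 in control mice (SE 0.119) and -2.15 in tKO mice (SE 0.114), with adjusted p of 1.34e-08 and 5.91e-11 from edgeR.

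Most other tested genes of the taste cascade were lower in mature mTEC too. Of a list of 11 genes for taste signalling, 7 were tested in control mice. Of these, 6 were lower and 1 higher in mature mTEC, against 30.5% and 35.7% of all genes tested. The median log2 fold change of the 7 was -1.75. The phospholipase C gene Plcb2 had a log2 fold change of -2.08, the G protein subunit genes Gnb3 and Gng13 had -1.99 and -0.88, and the regulators of G protein signalling Rgs13 and Rgs21 had -1.75 and -2.95. The sweet and umami receptor subunit gene Tas1r3 had -1.27. Itpr3, an inositol trisphosphate receptor gene that is not limited to tuft cells, was the exception with 0.81. In tKO mice 6 were lower and 1 higher as well. Rgs21 passed the filter only through immature libraries, and the other 6 genes had medians of -1.51 in control and -1.56 in tKO mice. Of 35 bitter taste receptor genes 2 had enough counts to be tested in control mice and 3 in tKO mice, in each case only through immature libraries, so that their direction was set by the filter and only their counts are given. Tas2r102 had 16 to 38 counts in each immature library and 0 to 7 in each mature library, although the mature libraries were deeper. Tas2r108 had 7 to 23 against 0 to 5 counts.

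Pou2f3 (ENSMUSG00000032015, chromosome 9 from 43123939 to 43210369, minus strand), the gene of the factor on which tuft cells depend, had the smallest log2 fold change among the members that passed in control mice. Its level was 44.3 to 74.5 CPM in immature libraries (median 62.5) and 29.6 to 48.9 CPM in mature ones (median 42.4), so that the ranges overlapped. Within each of the 8 mice it was lower in mature mTEC, by a factor of 1.25 to 1.97. The log2 fold changes of -0.52 (SE 0.136, adjusted p = 0.00368) and -0.63 (SE 0.122, adjusted p = 0.000244) passed the test of edgeR in control and tKO mice.

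Gfi1b (ENSMUSG00000026815, chromosome 2 from 28609450 to 28621982, minus strand) codes for a transcriptional repressor of tuft cells that is also needed in the erythroid and megakaryocyte lineages. Its counts were low in immature libraries, at 3 to 9, and 22 to 57 in mature libraries. The median was 2.59 CPM in immature and 9.24 CPM in mature libraries, and in 8 of 8 mice the mature library was higher, by 1.69 to 9.39 times. No other member passed as higher in mature mTEC. Its log2 fold changes were 1.84 in control mice (SE 0.377, adjusted p = 0.000587) and 1.63 in tKO mice (SE 0.377, adjusted p = 0.00113, edgeR). Since the gene passed the filter only through mature libraries, the fit without a filter is given beside them, with 1.89 (SE 0.392, adjusted p = 0.00575) and 1.68 (SE 0.356, adjusted p = 1.5e-05). In tKO mice the p-values of the fit without a filter were those of a large sample, and did not allow for the small number of mice. Of 8 genes of megakaryocytes and erythroid cells, 5 were tested in control mice, and 3 were higher in mature mTEC and 1 lower. The higher ones were the platelet genes Pf4, Ppbp and Gp9, which passed the filter only through mature libraries, with 18 to 29, 25 to 58 and 13 to 37 counts there and 0 to 5, 0 to 2 and 0 to 3 in immature ones. The globin gene Hbb-bs had a log2 fold change of -1.10. The summed level of the list was 36.4 to 55.2 CPM in mature and 18.5 to 75.6 CPM in immature libraries. The part of such cells or genes in the Gfi1b result was not tested.

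Avil (ENSMUSG00000025432, chromosome 10 from 127000709 to 127020994, plus strand), which held the letters shown above, had 120.1 to 275 CPM in immature libraries. It had 39.8 to 74.5 CPM in mature libraries. Its medians were 216 and 55.3 CPM, with no overlap. The log2 fold changes were -1.66 in control mice (SE 0.103) and -1.97 in tKO mice (SE 0.117), with adjusted p of 5.18e-09 and 2.23e-10 (edgeR).

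Dclk1 (ENSMUSG00000027797, chromosome 3 from 55242364 to 55539068, plus strand) codes for a microtubule-binding kinase that is widely used to mark tuft cells. Immature libraries held 129 to 257 CPM (median 178) and mature libraries 36.9 to 55.0 CPM (median 45.2). The ratio varied less between mice than that of the other members with a large change, being 2.96 to 4.67 times higher in immature mTEC. Log2 fold changes were -1.93 (SE 0.121, adjusted p = 5.91e-09) and -2.01 (SE 0.107, adjusted p = 5.73e-11) in control and tKO mice by edgeR.

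Sh2d6, for a protein with an SH2 domain (ENSMUSG00000052631, chromosome 6 from 72513641 to 72521707, minus strand), had 20 to 34 counts in mature and 29 to 59 in immature libraries. This was 4.47 to 8.47 CPM against 12.5 to 36.4 CPM, without overlap. Its log2 fold changes were -1.75 (SE 0.246, adjusted p = 2.06e-05) and -1.92 (SE 0.254, adjusted p = 4.23e-06, edgeR).

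Il25 (ENSMUSG00000040770, chromosome 14 from 54932695 to 54935837, plus strand), the cytokine gene, was the member with the fewest counts over all libraries apart from Gfi1b in immature mTEC. It had 7 to 18 counts in immature libraries, or 4.10 to 12.6 CPM, and 2 to 12 counts in mature ones, or 0.426 to 2.63 CPM. Every mouse had the lower level in mature mTEC. The log2 fold changes of -2.09 (SE 0.372, adjusted p = 0.000182) and -2.01 (SE 0.362, adjusted p = 0.000114) came from edgeR, with larger errors than those of Dclk1. The gene passed the filter only through immature libraries, and without a filter the values were -2.04 (SE 0.335, adjusted p = 0.00159) and -1.95 (SE 0.35, adjusted p = 1.85e-07). As for Gfi1b, the p of the tKO value without a filter did not allow for the small number of mice.

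Ltc4s (ENSMUSG00000020377, chromosome 11 from 50236461 to 50238616, minus strand) codes for leukotriene C4 synthase. The ranges were 10.3 to 37.1 CPM in immature and 9.50 to 16.6 CPM in mature libraries, and it was lower in mature mTEC in 4 mice and higher in 4. In control mice the log2 fold change was -0.17 (SE 0.182, adjusted p = 0.419). In tKO mice it was -0.67 (SE 0.238, adjusted p = 0.0207), and the adjusted p from edgeR was 0.187 without Rbfox2 tKO replicate 1 and 0.167 without Rbfox2 tKO replicate 2. Nor did it pass in DESeq2 or among genes with at least 10 counts in every library. These mice had the high values of 37.1 and 36.1 CPM in immature mTEC. Of 6 genes of mast cells and basophils, cells that also use Ltc4s, 4 were tested in control mice. Hdc alone passed the filter in each population and was higher in mature mTEC, whereas Ms4a2, Fcer1a and Gata2 passed it only through mature libraries, with 31 to 68, 12 to 21 and 23 to 48 counts there and 0 to 1, 0 and 3 to 5 in immature ones. The summed level of the list was 1116 to 1283 CPM in mature and 35.7 to 113 CPM in immature libraries, most of it from Hdc, with 1085 to 1258 CPM in mature libraries. The part of these genes in the Ltc4s values was not tested.

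The neural adhesion molecule gene L1cam (ENSMUSG00000031391, chromosome X from 73853778 to 73896105, minus strand) was the other gene whose direction was not stable. It had 14.6 to 42.7 CPM in immature (median 31.5) and 19.2 to 30.8 CPM in mature libraries (median 25.6), and was lower in mature mTEC in 6 mice and higher in 2. Its log2 fold change was 0.07 in control mice (SE 0.208, adjusted p = 0.795) and -0.56 in tKO mice (SE 0.153, adjusted p = 0.0039, edgeR). Of 6 genes of neurons and Schwann cells all were tested in control mice, and 4 were higher in mature mTEC and 0 lower, but these 4 passed the filter only through mature libraries. The list summed to 38.3 to 63.1 CPM in mature and 8.71 to 28.9 CPM in immature libraries, and its part in the L1cam values was not tested.

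**Figure D2:**
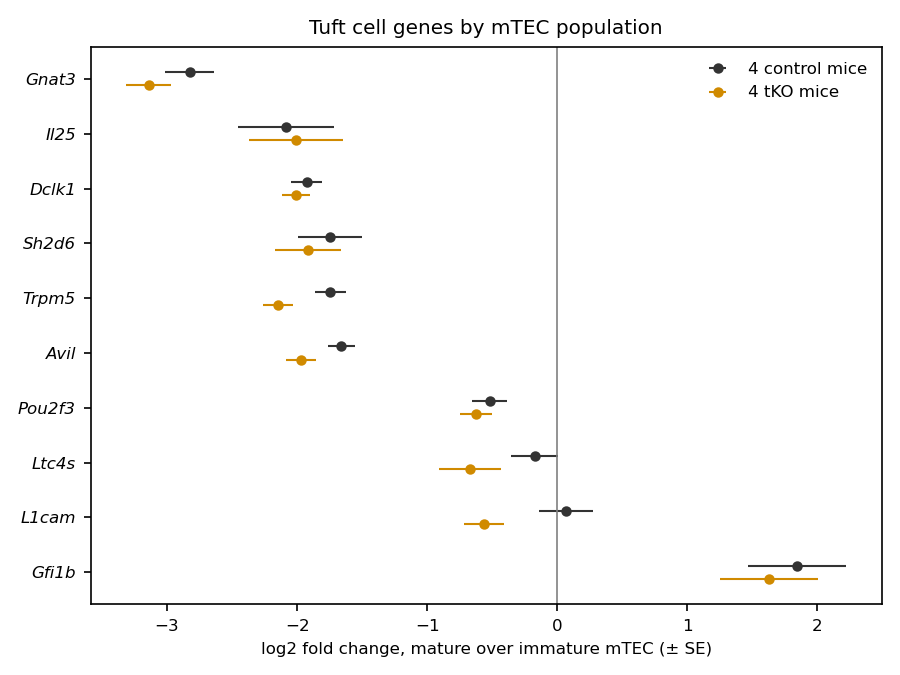
Log2 fold change of mature over immature mTEC for the 10 genes, with its standard error, in 4 control and 4 tKO mice (edgeR). The values run from -2.83 and -3.14 for Gnat3 to 1.84 and 1.63 for Gfi1b.

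Lipid and acetylcholine genes did not move as a block. Of 11 genes for the synthesis of eicosanoids and acetylcholine, 9 were tested in control mice. Of these, 4 were lower and 3 higher in mature mTEC, against 30.5% and 35.7% of all genes tested. The median log2 fold change of the 9 was 0.05. Of the 7 that passed the filter in each population, 3 were lower and 2 higher, against 36.7% and 24.5% of all such genes. The genes of the leukotriene branch upstream of Ltc4s were lower, Alox5 (5-lipoxygenase) by a log2 fold change of -1.98 and Alox5ap (its activating protein) by -1.98. Chat, which makes acetylcholine and passed the filter only through immature libraries, had -1.37 and the cyclooxygenase gene Ptgs1 had -0.65. The inducible cyclooxygenase gene Ptgs2 was higher, with 3.37, as was the phospholipase A2 gene Pla2g4a, with 1.47. The vesicular acetylcholine transporter gene Slc18a3 had 14 to 26 counts in mature libraries and 0 to 3 in immature ones.

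Of 24 further genes linked to tuft cells, 22 were tested in control mice. Here 10 were lower and 7 higher in mature mTEC, against 30.5% and 35.7% of all genes tested. The median log2 fold change of the 22 was 0.01. Of the 18 that passed the filter in each population, 9 were lower and 5 higher, against 36.7% and 24.5% of all such genes. The median of the 18 was -0.29. Lower were Lrmp with -2.23, Bmx, a cytoplasmic tyrosine kinase gene, with -1.81, Matk, also a kinase gene and tested only through its immature libraries, with -1.65, and Vav1, a guanine nucleotide exchange factor gene, with -1.39. Higher were Vil1, for the microvillus protein villin, with 2.28 and the homeobox gene Hmx3 with 1.95. Genes of 2 other mTEC subtypes were set beside them. The 6 genes of microfold cells were all higher in mature mTEC of control mice (median 1.10, or 0.74 over the 5 that passed the filter in each population), while of 5 tested genes of neuroendocrine cells 2 were higher and 1 lower (median 0.35). Of the 4 neuroendocrine genes that passed the filter in each population, 1 was higher and 1 lower (median 0.07). Genes of fibroblasts and endothelium fell about as much as the members. All 6 passed the filter in each population, and 5 were lower and 0 higher in control mice (median -1.49). In tKO mice it was again 5 and 0 (median -1.80). A fall of this size was thus not limited to tuft genes.

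**Figure D3:**
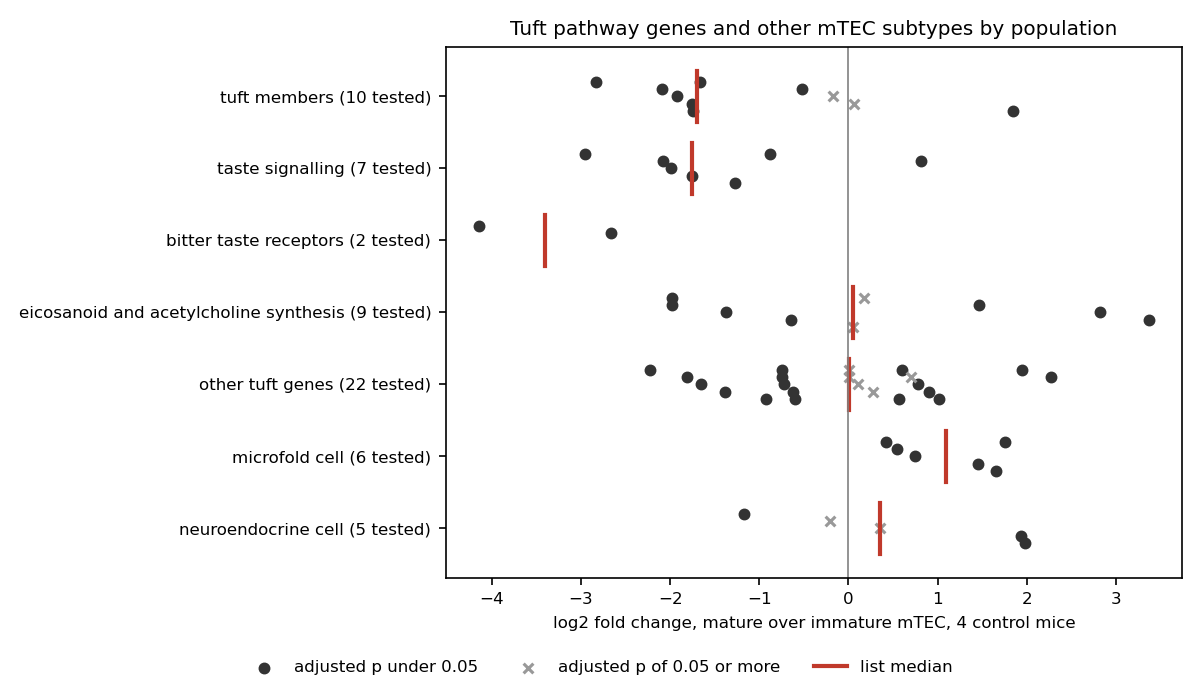
Log2 fold change of mature over immature mTEC in the 4 control mice for the genes of 7 lists, with filled points for an adjusted p under 0.05, crosses for the others and a bar for the list median. The medians are -1.70 for the 10 tuft genes, -1.75 for taste signalling, 0.05 for eicosanoid and acetylcholine synthesis, 0.01 for other tuft genes and 1.10 for microfold cells. Points and medians include genes that passed the filter on low counts through 1 population only, whose direction the filter set. Both bitter taste receptor genes shown are of this kind, so their points and median carry no result.

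Levels of different genes were compared per kilobase of exon, as CPM per kb. The length joined the exons of all annotated transcripts of a gene, from 1014 bases for Ltc4s to 15296 for Dclk1. The order depends on this length, whichever transcripts the cells use. In immature mTEC Gnat3 was first with 115 ± 43.1 (SD, n = 8), followed by Avil with 59.0 ± 17.5. Then came Trpm5 with 22.3 ± 6.08, Pou2f3 with 19.9 ± 3.32 and Ltc4s with 19.3 ± 10.8 CPM per kb. Sh2d6 and Dclk1, with 13.9 ± 5.45 and 12.1 ± 3.15, came before Il25 with 6.23 ± 3.13 and L1cam with 4.19 ± 1.29, and Gfi1b was last with 1.53 ± 0.802 CPM per kb. The ranges of neighbours in this order overlapped except between Avil and Trpm5, although Gnat3 was above Avil in 8 of 8 libraries. In mature mTEC the first 4 were Avil with 16.3 ± 3.21, Gnat3 with 14.3 ± 5.32, Ltc4s with 13.3 ± 2.45 and Pou2f3 with 13.3 ± 1.85, which did not differ beyond their spread. Next was Trpm5 with 5.68 ± 1.40, whose range was apart from that of Pou2f3. Below it came Gfi1b with 4.85 ± 1.31, Sh2d6 with 3.73 ± 0.910, L1cam with 3.41 ± 0.480 and Dclk1 with 2.41 to 3.60 CPM per kb, each within the spread of the one before. Il25 was last with 1.43 ± 0.610 CPM per kb, and Dclk1 was above it in 8 of 8 libraries, although their ranges overlapped.

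The control mice of the lines, which differ in their floxed allele, were compared next. Several tuft genes were higher in the Rbfox2 line than in the Rbfox1 line, in both populations. In mature mTEC 3 of 9 members tested were higher and 0 lower (edgeR, adjusted over 18021 genes), where 1.13% of all genes tested were higher and 1.56% lower. In immature mTEC it was 4 of 9 and 0, against 5.46% and 6.05% of 13060 genes. The medians of the members' log2 fold changes were 0.42 and 0.79, beside medians of 0.00 over all genes tested.

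In mature mTEC, Gnat3 had 13.0 and 9.71 CPM in the Rbfox1 line controls and 22.3 and 32.1 CPM in the Rbfox2 line controls. In immature mTEC these values were 96.8 and 74.2 against 136 and 240.1 CPM. Neither pair overlapped. Both Rbfox2 line controls lay above both Rbfox1 line controls for 23.2% of all genes tested in mature and 27.8% in immature mTEC. The log2 fold changes of Gnat3 in the Rbfox2 over the Rbfox1 line were 1.26 in mature (SE 0.250, adjusted p = 0.00836) and 1.12 in immature mTEC (SE 0.240, adjusted p = 0.00603) by edgeR.

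Trpm5 had 22.3 and 29.8 against 45.1 and 49.2 CPM in mature mTEC, and 86.5 and 91.1 against 132 and 184 CPM in immature mTEC. The channel gene was thus higher in both Rbfox2 line controls of each population, with log2 fold changes of 0.86 (SE 0.167, adjusted p = 0.00725) and 0.82 (SE 0.165, adjusted p = 0.00409, edgeR). Avil had 39.8 and 45.1 against 74.5 and 64.2 CPM in mature and 120.1 and 122 against 217 and 271 CPM in immature mTEC, with log2 fold changes of 0.72 (SE 0.126, adjusted p = 0.00324) and 0.99 (SE 0.150, adjusted p = 0.000532, edgeR).

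Dclk1 passed in immature mTEC, where it had 139.9 and 129 against 257 and 212 CPM, a log2 fold change of 0.79 (SE 0.130, adjusted p = 0.00103, edgeR). In mature mTEC its log2 fold change was 0.30 (SE 0.146, adjusted p = 0.307). Sh2d6 had 0.99 on the log2 scale in immature mTEC with a larger error (SE 0.318, adjusted p = 0.055, edgeR). The other tested members had log2 fold changes between -0.24 (Gfi1b) and 0.55 (Ltc4s) in mature and between 0.28 (Il25, Pou2f3) and 0.68 (L1cam) in immature mTEC, and none passed. Of the other tuft lists, taste signalling had 2 of 9 genes higher and 0 lower in mature mTEC, with Rgs13 at 1.32 and Gnb3 at 1.13. In immature mTEC it had 2 of 8 higher and 0 lower, with Rgs13 at 1.90 and Gng13 at 1.21. Of the genes for eicosanoid and acetylcholine synthesis, 2 of 11 were higher and 0 lower in mature mTEC, and 3 of 8 were higher and 1 lower in immature mTEC. Alox5 was higher in both populations, with log2 fold changes of 1.24 and 1.02, as was Ptgs1 with 0.81 and 1.14. Alox5ap was higher in immature mTEC with 1.56, and Ptgs2 was lower there (adjusted p = 0.00069, edgeR). Among the further tuft genes 4 of 22 were higher in mature and 11 of 19 in immature mTEC, with 0 lower. Bmx had 1.54 and 1.27, Lrmp 1.11 and 0.66 and Vav1 0.97 and 1.11.

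The number of members that passed changed with single libraries. It was 1 in mature (Avil) and 2 in immature mTEC (Dclk1 and Avil) without Rbfox2 control replicate 2, and between 2 and 6 without each of the other controls. Gnat3 did not pass in immature mTEC in DESeq2 either, where 3 members did. With the tKO mice of the lines compared in place of their controls, 0 members passed in mature mTEC, by edgeR, although 2.51% of all genes were higher and 2.59% lower. Gnat3 then had a log2 fold change of -0.20 (SE 0.245), Trpm5 of 0.13 (SE 0.167) and Avil of -0.04 (SE 0.127). In immature tKO mTEC, 2 members were higher in the Rbfox2 line, against 4.33% of all genes, while 4.53% were lower. They were Dclk1, with 0.51 (SE 0.133, adjusted p = 0.0247), and Ltc4s, with 1.65 (SE 0.261, adjusted p = 0.00093), while Gnat3 had 0.28 (SE 0.233).

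Other genes moved with the line too. In immature mTEC, Aire was at 213 to 299 CPM in the 4 mice of the Rbfox1 line and 19.6 to 54.1 CPM in those of the Rbfox2 line, and the costimulatory gene Cd80 was at 28.9 to 34.9 against 4.21 to 13.1 CPM. In mature mTEC, Aire was at 1237 to 1585 against 640 to 910 CPM. Of 6 genes of fibroblasts and endothelium, 5 were higher in immature mTEC of the Rbfox2 line controls and 0 of 6 in mature mTEC. Their summed level was 297 to 524 CPM in the Rbfox1 and 1477 to 1740 CPM in the Rbfox2 line controls in immature mTEC, and 334 to 396 against 401 to 412 CPM in mature mTEC. For the 6 genes of microfold cells it was 0 higher and 1 lower in immature and 0 and 0 in mature mTEC. The line and whatever else differed between the sorts of the lines cannot be told apart, and the part of these genes in the tuft result was not tested.

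The study's own comparison was of tKO with control mice within a line. No tuft gene passed in either line or population. Of 9 members tested in each, 0 passed in mature (edgeR, 0.0222% of all genes in the Rbfox1 and 0.0555% in the Rbfox2 line) and 0 in immature mTEC (0.0383% and 0.0919%), and 0 passed in DESeq2. An unadjusted p under 0.05 was reached by 3 members in mature and 4 in immature mTEC of the Rbfox1 line, and by 2 in each population of the Rbfox2 line, where 3.35%, 5.90%, 5.34% and 6.25% of all genes reached it. Il25 in mature and Gfi1b in immature mTEC had too few counts to pass the filter of the comparisons within a population. Il25 had 12 and 7 counts in mature libraries of Rbfox1 tKO mice against 2 and 4 in their controls, and 6 and 7 against 7 and 7 in the Rbfox2 line. The comparisons of lines and of tKO mice share the control libraries, so that their values are given side by side only.

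In the Rbfox1 line the sensory genes lay higher in tKO mice. Gnat3 had 22.3 and 19.7 CPM in mature mTEC of tKO mice against 13.0 and 9.71 CPM in controls, and 127 and 195 against 96.8 and 74.2 CPM in immature mTEC. The log2 fold changes were 0.89 (SE 0.256, adjusted p = 1) and 0.90 (SE 0.240, adjusted p = 0.513, edgeR). Trpm5 had 34.1 and 34.6 against 22.3 and 29.8 CPM in mature, and 128 and 173 against 86.5 and 91.1 CPM in immature mTEC, with log2 fold changes of 0.40 (SE 0.172) and 0.76 (SE 0.163). Avil had 57.3 and 53.3 against 39.8 and 45.1 CPM, and 169 and 215 against 120.1 and 122 CPM, with 0.38 (SE 0.128) and 0.66 (SE 0.151). For these 3 genes both tKO libraries were above both controls in each population. So they were for 5 of the 10 members in mature mTEC, with Il25 and Sh2d6, and for 5 in immature mTEC, with Dclk1 and L1cam, where 15.6% and 18.3% of all genes tested were. Il25 was itself not among the genes tested in mature mTEC. In neither population did a member of this line have both tKO libraries below both controls, as 15.2% and 17.0% of genes did. The adjusted p in immature mTEC was 0.241 for Trpm5 and 0.292 for Avil by edgeR. Without a filter on low counts all 3 passed there, with adjusted p of 8.06e-08 (Gnat3), 7.05e-05 (Trpm5) and 0.000426 (Avil) over 32404 genes, where 0.139% of genes were higher and 0.0401% lower, and 0 passed in mature mTEC. They passed under no other alternative. These smaller p-values rest on the same 2 mice against 2, so no tKO effect is read from them.

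In the Rbfox2 line the same genes did not lie higher. Gnat3 had 23.5 and 13.4 CPM in mature mTEC of tKO mice against 22.3 and 32.1 CPM in controls, a log2 fold change of -0.58 (SE 0.239, adjusted p = 0.867, edgeR). In immature mTEC it had 219 and 166 against 136 and 240.1 CPM, with 0.06 (SE 0.233). Trpm5 had log2 fold changes of -0.33 and 0.15, and Avil of -0.37 and 0.03. In mature mTEC both tKO libraries were below both controls for 3 of the 10 members, Trpm5, Avil and Il25, and above them for 0, where 17.2% of all genes tested were below and 17.7% above. Il25 was not among the genes tested there, and its values lay close together, at 1.64 and 1.62 against 1.65 and 1.73 CPM.

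Ltc4s and Il25 had the largest values of the Rbfox2 line, in immature mTEC. Ltc4s had 37.1 and 36.1 CPM in tKO mice against 15.2 and 20.5 CPM in controls, from 53 and 52 against 28 and 34 counts. Its log2 fold change was 1.06 (SE 0.251, adjusted p = 0.213, edgeR). Il25 had 12.6 and 11.1 against 6.53 and 4.21 CPM, from 18 and 16 against 12 and 7 counts, with 1.14 (SE 0.430, adjusted p = 0.695). Of the 10 members, these 2 had both tKO libraries above both controls there and 0 had both below, where 16.1% and 19.5% of all genes did. In mature mTEC, Ltc4s had -0.04 (SE 0.217), with 13.7 and 16.6 against 15.7 and 15.6 CPM. The remaining members had log2 fold changes between -0.49 (Gfi1b, mature) and 0.64 (L1cam, immature) in the Rbfox1 line and between -0.30 (L1cam, mature) and 0.27 (L1cam, immature) in the Rbfox2 line.

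**Figure D4:**
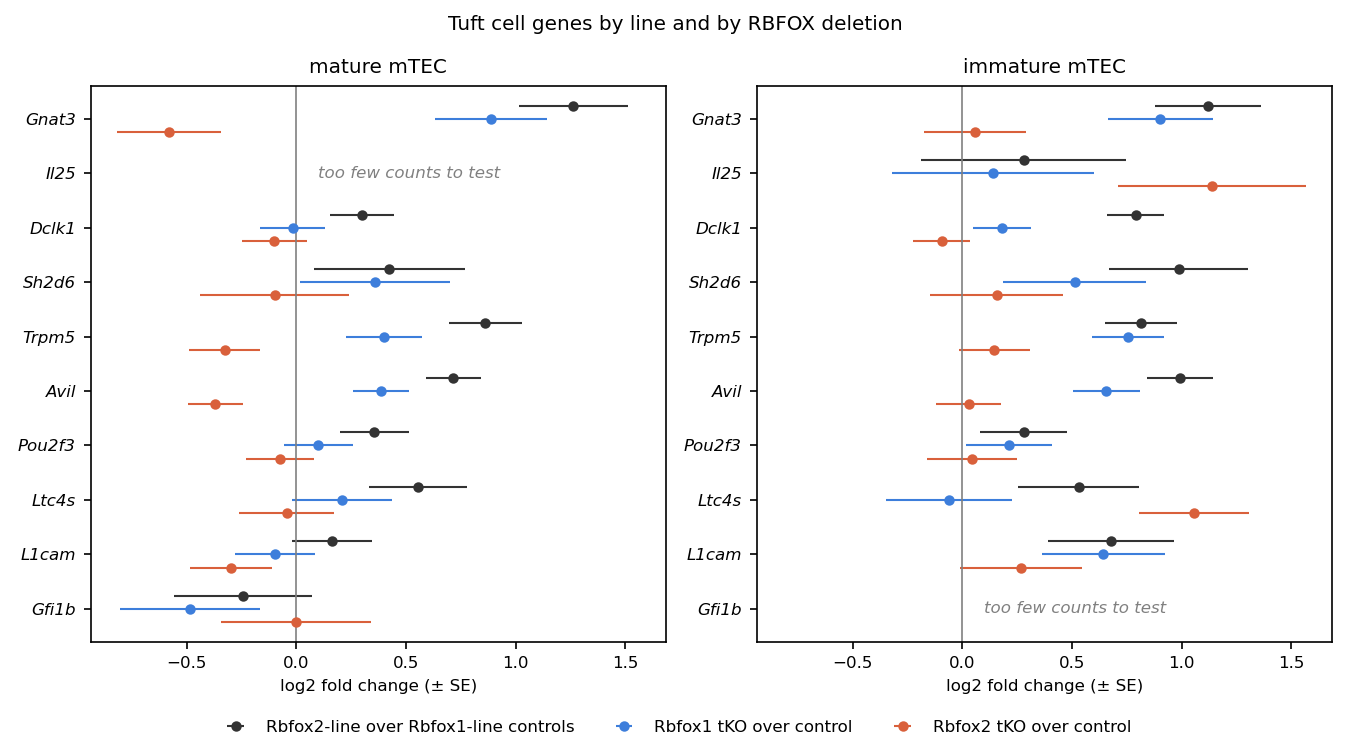
Log2 fold change with its standard error (edgeR) of the members in mature and immature mTEC, for Rbfox2 line over Rbfox1 line controls and for tKO over control mice of each line, with members that had too few counts marked. Gnat3 has 1.26 and 1.12 between the lines, 0.89 and 0.90 in Rbfox1 tKO mice and -0.58 and 0.06 in Rbfox2 tKO mice.

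The lines' tKO effects were tested against each other. None of the 9 members tested differed (0 by edgeR in either population, against 0.00555% and 0.00766% of all genes, and 0 in DESeq2). At an unadjusted p under 0.05 there were 3 in mature and 4 in immature mTEC, where 4.66% and 4.43% of all genes were. The Rbfox2 effect minus the Rbfox1 effect on Gnat3 was -1.47 (SE 0.350, adjusted p = 0.666) in mature and -0.84 (SE 0.334, adjusted p = 0.975) in immature mTEC. It was -0.75 (SE 0.178) and -0.63 (SE 0.211) for Avil, and -0.73 (SE 0.236) and -0.61 (SE 0.230) for Trpm5. Without a filter the difference of Gnat3 passed in both populations, with adjusted p of 0.00646 and 0.00659 (edgeR). It passed under no other alternative, and the values with the filter are the ones read. With the lines pooled, 0 members passed in mature (0.0388% of genes) and 0 in immature mTEC (0.0919%), by edgeR or DESeq2. An unadjusted p under 0.05 was reached by 0 and 5 members, against 4.49% and 7.47% of all genes. Effects in mature minus those in immature mTEC also gave 0 members and 0 genes in each line (edgeR and DESeq2 for the members), with 1 member in each at an unadjusted p under 0.05, against 3.74% and 5.21% of all genes. Of the lists for taste signalling, lipid and acetylcholine synthesis and further tuft genes, 0 genes passed in any comparison of tKO with control mice within a line.

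For some members, but not all, differences in level between the mice recurred in both of their libraries. In mature as in immature mTEC, the 2 Rbfox1 control mice had the lowest levels of Gnat3, Trpm5 and Avil of all 8 mice. The share of all genes with this order over the 8 mice was not computed. Among the control mice alone, both of the Rbfox2 line were above both of the Rbfox1 line for 23.2% of genes tested in mature and 27.8% in immature mTEC. Across the 8 mice, levels in mature and immature mTEC correlated by a Pearson r of 0.85 for Dclk1, 0.79 for Gnat3, 0.74 for Trpm5 and Avil, 0.64 for Sh2d6, 0.60 for Ltc4s and Pou2f3, 0.25 for Il25, -0.10 for Gfi1b and -0.41 for L1cam. The 2 libraries of a mouse share the animal and the line, so these values are a description. Among the 8 members tested in both populations, all 28 pairs correlated positively over the 16 libraries after each was centred on its population, from 0.30 to 0.93 with a median of 0.61. These points share line and genotype as well. Of 12245 genes with at least 5 CPM, those most like the mean of these members by the same measure were Cap1 with an r of 0.95, Gng13 with 0.92, Txnip with 0.91, Plac8, Cab39, Vav1, Gm7665 and Rab5b with 0.90.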

How the data were processed

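Gene expression was measured by RNA sequencing of sorted mature and immature mTEC from 8 mice. The authors deposited counts of reads per gene, without normalization, after removing duplicate and unmapped reads and down-sampling (10000000 for immature and 14500000 for mature libraries, as the column names give them). HISAT2 2.1.0, Picard 2.10.9, featureCounts 1.6.0 and the build mm10 are named in the submitters' processing notes. The strand setting of the counting is not given. Exons of Trpm5, Ltc4s, Avil and Dclk1 share 220, 268, 165 and 87 bases with genes on the opposite strand, and those of L1cam share 100 bases with Arhgap4 on the same strand, so that reads there may be split or shared.

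Symbols and coordinates were taken from GENCODE M21 (GRCm38), which named 53360 of 53464 Ensembl genes. The members and gene lists, and the control comparison of the lines, were chosen with earlier results of these data known. All 10 members are named, and other genes only from those lists or from the likeness ranking, in which the first 8 genes are named. Bitter taste receptors were all symbols beginning Tas2r with a number.

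Tests used edgeR 4.0.16 under R 4.3.3 (TMM, filterByExpr with a minimum count of 10, quasi-likelihood test), with Benjamini-Hochberg adjustment over all genes tested and a threshold of 0.05. Comparisons within a population used its 8 libraries with a mean for each condition, and those of populations used the 8 libraries of control or of tKO mice with line as a covariate. Alternatives were DESeq2 1.42.0, other size factors, omitting the filter or asking each library for at least 10 counts, a log2 fold threshold of 1, fitting fewer or more libraries, a term for sex, the mouse or number as a replicate block, thinning to 1506134 counts and each mouse left out. Within a population that removes 1 library, and in comparisons of populations both libraries of the mouse. The comparison of the lines in tKO mice, and the counts over genes that passed the filter in all 4 libraries of each population, were chosen after seeing the data. The scripts were tested on simulated data. Replicates are separate mice, and libraries of a condition differed beyond counting noise (chi-square of 1.78 to 2.74 per degree of freedom). A mouse's mature and immature libraries carry its number, and their deviations from the group means correlated by 0.138 to 0.268. Over autosomal genes alone, which leaves out the sex chromosomes, these correlations were 0.0705 to 0.169. Genes at the 3 to 9 counts of Gfi1b or the 2 to 12 counts of Il25 are measured with low precision. Tables were handled in Python 3.11.15 with pandas 2.3.3 and numpy 2.4.6.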

Additional observations from a re-analysis of the deposited data

Results flagged for a closer look

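In 40 groups of 4 libraries (10 genes, control or tKO mice, mature or immature mTEC), 2 held a library far from the others, where chance gives about 1 in 20. Trpm5 in immature mTEC of tKO mice had 128 CPM in Rbfox1 tKO replicate 2 and 169, 173 and 176 CPM in the other mice. Il25 in mature mTEC of tKO mice had 2.63 CPM in Rbfox1 tKO replicate 2, from 12 counts, and 1.62, 1.64 and 1.66 CPM in the other mice.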

How the results depend on the processing

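The number of members that differed between mature and immature mTEC, in either direction, stayed within 1.5 times of its value under all alternatives run, including the replicate block of the mouse and thinning. The number higher, which is Gfi1b alone, fell from 1 to 0 where that gene could not be fitted, with at least 10 counts in every library (control and tKO mice) and after thinning (tKO mice). Il25 could not be fitted under either alternative in control or tKO mice. Without a filter on low counts, 3 members passed in immature Rbfox1 tKO mTEC, 2 in immature mTEC of both lines together, and 1 in the difference between the lines' effects in each population, where 0 did otherwise. For both lines together in immature mTEC, 0 to 1 passed with each library left out. Between the line controls, a log2 fold threshold of 1 left 1 member in each population, the tKO mice in place of controls gave 0 in mature and 2 in immature mTEC, and leaving out each library gave 1 to 4 in mature and 2 to 6 in immature mTEC. Why they moved was not tested, other than that the alternatives use fewer or other libraries or genes.

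Tests of tKO against control mice rest on 2 mice each, and the numbers that label them are shared by tKO and control mice. Same-numbered tKO and control mice deviated together by 0.0910 to 0.252, so that not every pair exceeded 0.1. Within a line the number goes with sex, and over autosomal genes alone these values were 0.00799 to 0.121. With the numbers as a replicate block 0 members passed, as without it. Other sizes changed sign as well. In tKO mice in place of controls, the log2 differences between lines in mature mTEC were -0.041 for L1cam, -0.037 for Avil and -0.20 for Gnat3. They were -0.033 for Sh2d6 and 0.24 for Gfi1b. Of these genes, Avil and Gnat3 had passed as higher in mature mTEC of the Rbfox2 line controls. With each library left out, the log2 fold changes in mature mTEC of Rbfox1 tKO mice were -0.19 to 0.17 for Dclk1, -0.24 to 0.024 for L1cam and -0.14 to 0.39 for Pou2f3. In immature mTEC they were -0.11 to 0.49 for Pou2f3 and -0.24 to 0.11 for Ltc4s. In mature mTEC of Rbfox2 tKO mice they were -0.25 to 0.048 for Dclk1, -0.17 to 0.024 for Pou2f3, -0.37 to 0.37 for Gfi1b, -0.57 to 0.29 for Sh2d6 and -0.20 to 0.086 for Ltc4s. In immature mTEC of these mice they were -0.25 to 0.050 for Dclk1, -0.086 to 0.40 for Trpm5, -0.14 to 0.78 for L1cam, -0.056 to 0.14 for Pou2f3, -0.15 to 0.20 for Avil, -0.31 to 0.52 for Gnat3 and -0.19 to 0.57 for Sh2d6. Between line controls they were -0.61 to 0.052 for Gfi1b in mature and -0.072 to 0.54 for Il25 in immature mTEC. For L1cam between populations of control mice, with both libraries of each mouse left out, they were -0.15 to 0.37. Gfi1b in mature Rbfox2 tKO mTEC was 0.0043 with DESeq2 size factors, 0.0019 with at least 10 counts in every library, 0.000459 with 4 libraries and 0.0014 with all 16 libraries in the fit. In all, 1030 of the other values kept their direction and side of the threshold.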
